A study of Mus musculus with 12 samples.

Results

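Aminoacyl-tRNA synthetases, the enzymes that load each tRNA with its amino acid, were followed in a mouse hepatoma line and in primary liver endothelium, each grown with the other or alone. The genes were those annotated as protein-coding whose description holds the words tRNA synthetase. They numbered 42 of the 45777 genes in the deposited gene table, and 1 matching pseudogene of Kars was left out. By known location, 19 encode cytosolic enzymes, 17 encode mitochondrial enzymes and 2 (Gars and Kars) supply both compartments from a single gene. Aimp1 and Aimp2, which are scaffold proteins of the cytosolic multi-synthetase complex, and Aarsd1 and Prorsd1, which carry a domain related to synthetase editing, match the same words without being synthetases. A symbol that ends in 2 marks the mitochondrial enzymes, with 2 exceptions that were not counted as mitochondrial, Aimp2 and the cytosolic threonyl enzyme Tarsl2.

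A synthetase activates its amino acid with ATP and joins it to the matching tRNA, and this step sets the supply of charged tRNA for the ribosome. Cytosolic and mitochondrial protein synthesis use separate tRNAs, and most amino acids have a separate enzyme for each, all encoded in the nucleus. Uncharged tRNA activates the kinase Gcn2, which phosphorylates eIF2 and so raises translation of the transcription factor ATF4. ATF4 in turn binds C/EBP-ATF response elements at genes for amino acid synthesis, amino acid transport and several cytosolic synthetases, a programme known as the integrated stress response. Wars, the tryptophanyl enzyme, is also known as an interferon-inducible gene.

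Hepa1-6 is an established mouse hepatoma line, and LSECs (liver sinusoidal endothelial cells) form the porous capillary wall of the liver. LSECs were seeded at 500000 per well and Hepa1-6 cells at 100000 per insert with 3 μm pores, so that cells in co-culture shared medium and did not mix. All 4 groups, which were co-cultured Hepa1-6 cells, Hepa1-6 cells alone, co-cultured LSECs and LSECs alone, spent 24 h in DMEM with 2% serum and gave 3 libraries each. No genotype, strain or age is given, and nothing says that the libraries of a group came from separate animals or cultures, so p-values measure the spread between these libraries.

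The libraries held 32761492 to 48870698 counts. The 42 genes took 0.552% to 0.604% of them in Hepa1-6 cells, 0.418% to 0.457% in LSECs alone and 0.307% to 0.33% in co-cultured LSECs. All 42 passed the low-count filter in every comparison. Endothelial markers matched the labels. The summed level of 8 of them was 6570 to 10418 CPM (counts per 1000000 counts of a library, scaled by TMM) in LSEC libraries. It was at most 1.04 CPM in Hepa1-6 libraries. For 8 hepatoma and hepatocyte markers the sum was 4219 to 5278 CPM in Hepa1-6 libraries and 30.1 to 56 CPM in LSEC libraries. Between mono-cultures, by the test given below, 4 of 7 tested were lower and 2 higher in LSECs, against 32.8% and 37.2% of all genes. For 7 stellate cell and fibroblast markers the sums were 1904 to 1977 CPM in Hepa1-6 cells and 73.7 to 113 CPM in LSECs. Of 6 tested, 4 were higher and 1 lower in LSECs. LSEC libraries also held macrophage transcripts, with all 10 macrophage and Kupffer cell markers at 1 CPM or more. The LSEC libraries numbered 1 stood apart from those numbered 2 and 3 in both conditions. Synthetase genes were a median 0.17 higher on the log2 scale in replicate 1 of LSECs alone, with a range over genes of -0.71 to 0.97, and 0.13 higher in replicate 1 of co-cultured LSECs, with a range of -0.46 to 0.76.

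The promoters of 5 synthetase genes hold the C/EBP-ATF response element, and these stretches are shown because the element is the one that ATF4 binds. Promoter windows of 250 bases before to 50 bases after the start site came from RefSeq on GRCm38.p6 and were found for 32 of the 42 genes. The element was searched as TGATGNAA on either strand. Each stretch runs 5′ to 3′ on the gene's strand with 20 bases beside each element, and capitals mark the element.
Gars, chr6:55037951-55037998, plus strand: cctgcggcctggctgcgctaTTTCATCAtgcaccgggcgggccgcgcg
Aars, chr8:111033710-111033878, plus strand: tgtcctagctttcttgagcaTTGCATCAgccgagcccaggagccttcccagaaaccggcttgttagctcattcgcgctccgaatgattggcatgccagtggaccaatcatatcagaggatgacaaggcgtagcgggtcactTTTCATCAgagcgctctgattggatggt
Iars, chr13:49682117-49682164, plus strand: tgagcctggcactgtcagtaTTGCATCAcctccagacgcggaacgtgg
Tars, chr15:11399646-11399693, minus strand: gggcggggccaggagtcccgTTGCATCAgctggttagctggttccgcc
Yars, chr4:129189886-129189933, plus strand: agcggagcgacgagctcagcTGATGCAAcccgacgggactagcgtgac

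Counting the start site of the window as 1, the element began at position -30 in Gars, the glycyl enzyme, and at -15 in Tars, the threonyl enzyme. It began at 8 in Iars and 4 in Yars, the isoleucyl and tyrosyl enzymes. Aars, the alanyl enzyme, held 2 of them, at -112 and 10. Deposited transcripts of Aars begin as early as 111027778, upstream of its window, which begins at 111033592. Those of Yars begin as early as 129189734, inside its window and before the start site used. The 5 genes are 15.6% of the 32 with a window, against 4.51% of all 27025 genes in the table. They comprise 4 of 12 cytosolic genes with a window and 1 of the 2 dual-compartment genes, and none of 14 mitochondrial genes held the letters. The E-box CACGTG, the letters bound by MYC and MAX, was also in 5 of the 32 windows (15.6%: Aars, Iars, Tars, Farsb and Ears2), against 8.09% of all genes, and overlapped no C/EBP-ATF element. A match to these letters is a description and does not show that a factor binds there.

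Cytosolic enzymes were far more abundant than mitochondrial enzymes in both cell types. In TPM, the authors' abundance value that accounts for transcript length, the 19 cytosolic genes of Hepa1-6 cells alone summed to 2640 ± 70.9 (SD, n = 3) and the 17 mitochondrial genes to 439 ± 4.52. In LSECs alone the sums were 2521 ± 298 and 317 ± 33.1 TPM. The median cytosolic gene stood at 128 TPM in Hepa1-6 cells and 89.4 TPM in LSECs, and the median mitochondrial gene at 18.1 and 16 TPM.

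The order of levels differed between the cells. Gars was the most abundant in Hepa1-6 cells alone, at 533 ± 3.02 TPM, followed by Tars at 314 ± 5.74 and Nars, the asparaginyl enzyme, at 305 ± 4.11, the last 2 differing by about the spread between libraries. In LSECs alone Rars, the arginyl enzyme, led at 616 ± 51.2 TPM, followed by Nars at 266 ± 55.4 and Gars at 228 ± 15.1, whose levels did not differ beyond their spread. Among mitochondrial enzymes Lars2 (leucyl) and Iars2 (isoleucyl) led in Hepa1-6 cells, at 96.9 ± 8.49 and 76.1 ± 1.04 TPM, and in LSECs, at 58.3 ± 7.78 and 52.5 ± 17.9. The ratio of cytosolic to mitochondrial TPM for the same amino acid ran from 0.948 for leucine to 42.6 for asparagine in Hepa1-6 cells alone and from 1.15 to 42.5, for the same amino acids, in LSECs alone. Leucine was thus the amino acid with the lowest ratio in both mono-cultures. In Hepa1-6 cells alone its cytosolic enzyme Lars, at 91.8 ± 1.16 TPM, was not above Lars2.

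The genes to which the comparisons below return are spread over the genome, given here on mm10 as the span of their deposited transcripts. Aars (Gene 234734) lies on chromosome 8 from 111027778 to 111055569 and Rars (Gene 104458) on chromosome 11 from 35808381 to 35834528. Sars (Gene 20226) lies on chromosome 3 from 108424864 to 108445259, and Wars (Gene 22375) on chromosome 12 from 108860030 to 108894175. Cars (Gene 27267) spans 143557230 to 143600090 of chromosome 7, and Gars (Gene 353172) spans 55038001 to 55079504 of chromosome 6.

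**Figure D1:**
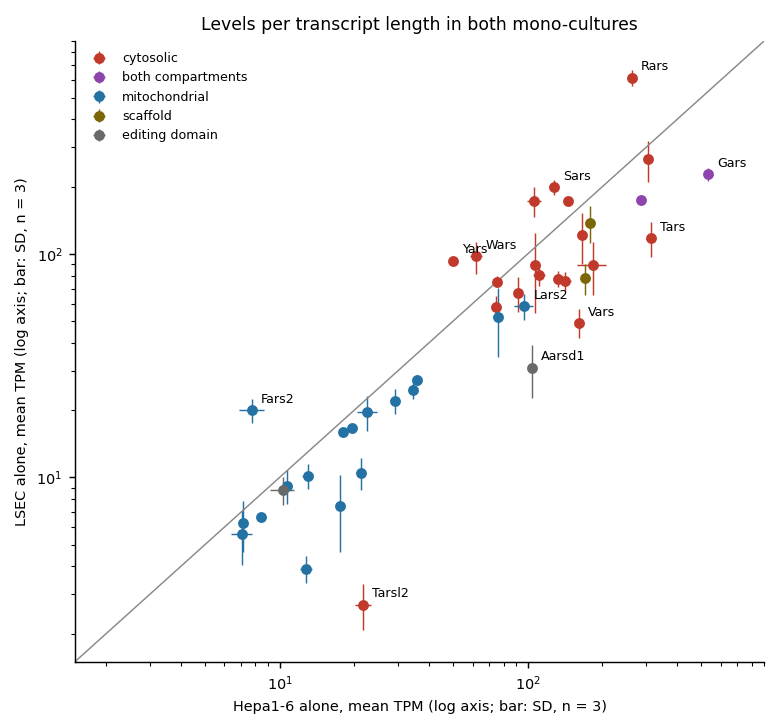
Mean TPM of each of the 42 genes in Hepa1-6 cells alone (horizontal) and LSECs alone (vertical), both on log axes, with SD over 3 libraries as bars and colour for the class of gene; the grey line marks equal levels. Mitochondrial enzymes lie mostly below and to the left of the cytosolic ones, Rars, Yars, Sars, Wars, Aars, Cars and Fars2 lie above the line, and Tarsl2 lies farthest below it.

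The synthetase genes called between LSECs alone and Hepa1-6 cells alone were mostly lower in LSECs. By edgeR's quasi-likelihood test with Benjamini-Hochberg adjustment over all genes, at an adjusted p under 0.05, 6 of 42 were higher in LSECs and 24 were lower. Over all 16411 genes tested, 37.2% were higher and 32.8% lower, so the share of lower calls among the synthetase genes was above the background and the share of higher calls below it. The median log2 difference was -0.38 over cytosolic, -0.39 over mitochondrial and 0.09 over all genes. The genes higher in LSECs were the cytosolic Aars, Rars, Sars, Wars and Yars and the mitochondrial Fars2.

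Tarsl2, a second cytosolic threonyl enzyme, showed the largest difference. It was at 36.3, 31.6 and 34.4 CPM in Hepa1-6 cells alone and at 3.73, 4.08 and 4.41 CPM in LSECs alone, a log2 difference of -3.04 ± 0.13 (SE, adjusted p = 6.8e-06). The main threonyl enzyme Tars differed in the same direction, with 399 to 412 CPM in Hepa1-6 cells and 145 to 150 CPM in LSECs (-1.44 ± 0.09, adjusted p = 2.66e-05). The groups did not overlap for either, so both cytosolic threonyl enzymes were lower in LSECs.

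Vars, the valyl enzyme, was at 324 to 342 CPM in Hepa1-6 cells and 95.7 to 98.2 CPM in LSECs (-1.74 ± 0.09, adjusted p = 1.28e-05). Aarsd1, the editing-domain gene, differed by -1.69 ± 0.31 (adjusted p = 0.00272), although replicate 1 of LSECs alone, at 31.5 CPM, was well above the 14.1 and 17.1 CPM of the others. Gars and Eprs, the fused glutamyl-prolyl enzyme, were lower by -1.24 ± 0.12 and -1.16 ± 0.13 (adjusted p = 0.000159 and 0.000237). In these genes too every LSEC library lay below every Hepa1-6 library.

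In the other direction, Fars2, the mitochondrial phenylalanyl enzyme, was at 7, 7.06 and 8.35 CPM in Hepa1-6 cells alone and 24.8, 17.7 and 15.1 CPM in LSECs alone (1.39 ± 0.22, adjusted p = 0.00137). Rars was at 273 to 280 CPM in Hepa1-6 cells and 694, 603 and 590 CPM in LSECs (1.21 ± 0.11, adjusted p = 0.000118). Yars (0.91 ± 0.15, adjusted p = 0.00194), Sars, the seryl enzyme (0.65 ± 0.19, adjusted p = 0.0223), and Wars (0.63 ± 0.10, adjusted p = 0.00116) were also higher in LSECs. For Rars and Sars replicate 1 was the highest LSEC library, and the call on Sars was lost when any library of Hepa1-6 cells alone was left out (adjusted p up to 0.0822). Within pairs for the same amino acid, the cytosolic difference was above the mitochondrial in 11 of 14, the exceptions being histidine, threonine and valine.

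Co-culture lowered many synthetase transcripts in Hepa1-6 cells, each by a small amount. None of the 42 was higher and 15 were lower, against 8.5% of 14796 genes higher and 7.03% lower over the whole table. At an unadjusted p under 0.05 1 was higher and 22 lower, and DESeq2 called 0 higher. The backgrounds above are for edgeR at an adjusted p and do not apply to these counts. Of 42 estimates 37 were below 0, against 7592 of 14796 over all genes tested. The lower genes were 9 of 19 cytosolic enzymes, both dual-compartment enzymes, 3 of 17 mitochondrial enzymes (Iars2, Mars2 and Tars2) and Aarsd1. The median log2 fold change was -0.12 over cytosolic, -0.08 over mitochondrial and -0.00 over all genes tested.

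The smallest p belonged to Cars, the cysteinyl enzyme, at 199, 198 and 198 CPM alone and 175, 166 and 170 CPM in co-culture, a log2 fold change of -0.22 ± 0.03 (SE, adjusted p = 8.05e-06). Iars stood at 230, 232 and 234 CPM alone and 198, 205 and 207 CPM in co-culture (-0.19 ± 0.03, adjusted p = 3.49e-05). Sars stood at 224, 234 and 229 CPM alone and 201, 205 and 204 CPM in co-culture (-0.17 ± 0.03, adjusted p = 9.65e-05). In each of these genes all co-culture libraries lay below all mono-culture libraries, with a narrow spread in both groups.

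Gars was at 623, 634 and 620 CPM alone and 560, 577 and 552 CPM in co-culture (-0.15 ± 0.02, adjusted p = 0.000134). Nars (-0.16 ± 0.03, adjusted p = 0.000183) and Yars (-0.22 ± 0.04, adjusted p = 0.000777) fell as well, from means of 397 to 356 CPM and of 62.7 to 53.8 CPM. Kars, the lysyl enzyme, was at 293 to 297 CPM alone and 274 to 285 CPM in co-culture (-0.08 ± 0.03, adjusted p = 0.0325). Its call was lost without any of 5 of the 6 libraries (adjusted p up to 0.119). Of the called genes, only Mars2 and Tars2 had a larger adjusted p (0.0468 and 0.0452). Leaving out a library in turn gave 11 to 13 lower genes, and limma on log2(TPM + 1) gave 7.

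Some abundant cytosolic enzymes did not pass the test. Aars was at 213, 211 and 213 CPM alone and 210, 217 and 215 CPM in co-culture, a log2 fold change of 0.01 ± 0.03 (adjusted p = 0.849). Rars was at 273 to 280 CPM alone and 268 to 275 CPM in co-culture (-0.02 ± 0.03, adjusted p = 0.61), and Qars, the glutaminyl enzyme, changed by 0.01 ± 0.04 (adjusted p = 0.928). These 3 estimates lay near 0. The summed level of 10 macrophage markers was 19.1 to 21.4 CPM alone and 24.3 to 25.1 CPM in co-culture, with Marco, Cd5l, Clec4f and Timd4 without a count in either group. Its part in the result was not tested, and in bulk RNA fewer cells of a type and less RNA per cell cannot be told apart.

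**Figure D2:**
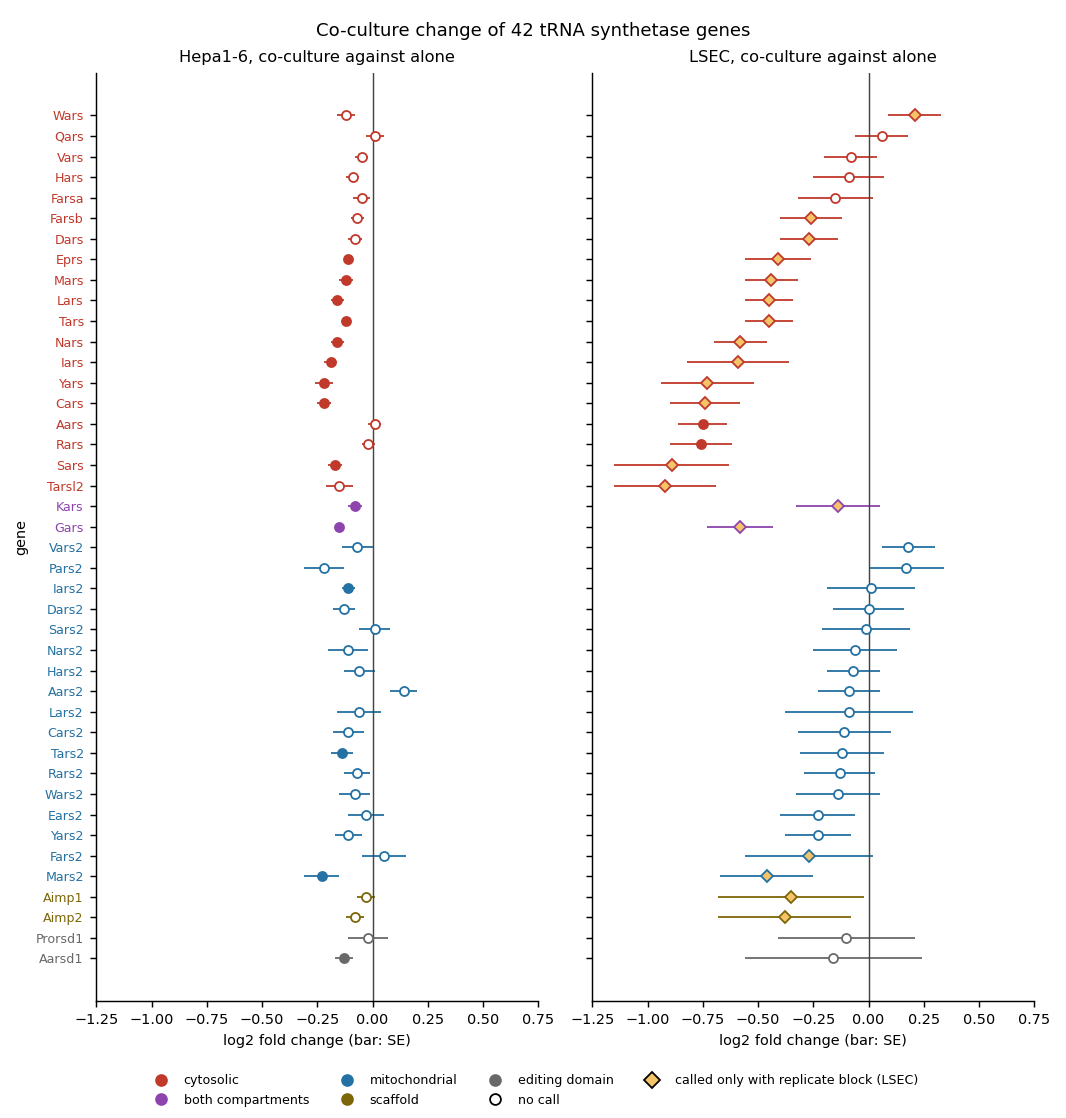
Log2 fold change of each of the 42 genes (rows, coloured by class) in co-culture against mono-culture, for Hepa1-6 cells (left) and LSECs (right), with standard errors as bars. Filled circles passed an adjusted p of 0.05, open circles did not, and diamonds in the LSEC panel passed only with replicate number as a block; the LSEC values of cytosolic enzymes reach -0.92 and most mitochondrial values lie near 0.

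In LSECs cytosolic enzymes had estimates of -0.92 to 0.21 in co-culture and mitochondrial enzymes of -0.46 to 0.18. Of the 42 genes, Aars and Rars passed the test, both lower, and 0 were higher, against 2.18% of 15256 genes higher and 0.911% lower. At an unadjusted p under 0.05 0 were higher and 13 lower, and DESeq2 called 0 higher and 11 lower. These counts have no share over all genes beside them, since the backgrounds given are for edgeR at an adjusted p. Same-numbered LSEC libraries deviated together from their group means. Those numbered 2 and 3 also deviated together with each other (0.744 and 0.688), and the labels state no pairing. A fit with replicate number as a block called 20 of the 42 lower and 1 higher, against backgrounds of 16.6% lower and 16.7% higher. With that block the lower genes were 14 of 19 cytosolic enzymes, both dual-compartment enzymes, both scaffold genes and 2 of 17 mitochondrial enzymes (Fars2 and Mars2). The median log2 fold change was -0.45 over cytosolic enzymes, -0.09 over mitochondrial enzymes and -0.03 over all genes, and with the block it was -0.45, -0.09 and -0.02. The mitochondrial median was -0.17 without replicate 1 of co-cultured LSECs, -0.06 without replicate 1 of LSECs alone and -0.03 without both.

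Aars was at 309, 306 and 297 CPM in LSECs alone and 184, 189 and 184 CPM in co-culture, a log2 fold change of -0.75 ± 0.11 (SE, adjusted p = 0.0252, and 4.01e-06 with the block). Rars was at 694, 603 and 590 CPM alone and 404, 368 and 370 CPM in co-culture (-0.76 ± 0.14, adjusted p = 0.0497, and 4.55e-06 with the block). In both genes the groups lay far apart and did not overlap. Without the block, the 2 calls were sensitive to single libraries. Leaving out replicate 1 of LSECs alone left Aars called and Rars not (adjusted p = 0.0599), and leaving out any of the other 5 left neither called, with adjusted p from 0.0778 to 0.171 for Aars and from 0.105 to 0.257 for Rars.

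Sars showed how the first LSEC libraries widened the spread. It was at 464, 305 and 296 CPM alone and 244, 174 and 175 CPM in co-culture, so that each library fell well below its same-numbered partner (-0.89 ± 0.26, adjusted p = 0.174, and -0.87 with adjusted p = 3.65e-06 with the block). Gars was at 296, 253 and 237 CPM alone and 193, 176 and 172 CPM in co-culture (-0.58 ± 0.15, adjusted p = 0.127, and 4.69e-05 with the block). Yars was at 141, 106 and 101 CPM alone and 85.3, 63.5 and 66 CPM in co-culture (-0.73 ± 0.21, adjusted p = 0.166, and 1.26e-05 with the block). For these genes replicate 1 was the highest library of each group, and the groups did not overlap.

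Iars moved the other way between replicates, at 127, 204 and 213 CPM alone and 98.9, 135 and 137 CPM in co-culture (-0.59 ± 0.23, adjusted p = 0.335, and 9.24e-05 with the block). Its replicate 1 of LSECs alone lay below both later libraries of the co-culture, and only the comparison within numbers separated the groups. Nars (-0.58 ± 0.12), Cars (-0.74 ± 0.16), Tars (-0.45 ± 0.11) and Lars, the cytosolic leucyl enzyme (-0.45 ± 0.11), had adjusted p of 0.0582, 0.0765, 0.103 and 0.106, and all 4 were called with the block. Eprs was lower by -0.41 ± 0.15 (adjusted p = 0.293, and 0.000174 with the block).

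Wars and Qars were the cytosolic enzymes with LSEC estimates above 0, and Wars was called with the block only. Wars was at 130, 133 and 127 CPM alone and 166, 143 and 152 CPM in co-culture, with no overlap between groups (0.21 ± 0.12, adjusted p = 0.596, and 0.20 with adjusted p = 0.0195 with the block). Hars, Farsa, Qars and Vars passed neither way, with log2 fold changes of -0.15 to 0.06. Tarsl2 had the most negative estimate at low levels, with 3.73, 4.08 and 4.41 CPM alone and 1.62, 2.56 and 2.47 CPM in co-culture (-0.92 ± 0.23, adjusted p = 0.115, and 0.0043 with the block). Leaving out both LSEC libraries numbered 1 gave 19 lower genes and 1 higher, against 2598 lower and 2961 higher of 15278 genes tested.

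Most mitochondrial enzymes had LSEC estimates near 0. Iars2 was at 66.7, 97.7 and 97.1 CPM alone and 71.5, 100 and 97.3 CPM in co-culture (0.01 ± 0.20, adjusted p = 0.998, and 0.872 with the block). Sars2 was at 18.3, 14 and 14 CPM alone and 18.8, 14 and 14.2 CPM in co-culture (-0.01 ± 0.20, adjusted p = 0.998). In both genes replicate 1 stood apart in the same direction in each group, and each library lay close to its same-numbered partner. Mars2, the methionyl enzyme, was the mitochondrial gene with the most negative estimate (-0.46 ± 0.21, adjusted p = 0.423, and 0.0279 with the block).

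Some markers of macrophages moved with the LSEC comparison. The summed level of the 10 macrophage and Kupffer cell markers was 1761 to 2584 CPM in LSECs alone and 3187 to 4256 CPM in co-culture, none of them at 0. Of these 10 markers 3 were higher in co-culture and 1 lower, against 2.18% and 0.911% of all genes. With the block the counts were 6 and 1, against 16.7% and 16.6% of all genes. The sum of 6 lymphocyte markers was 0.803 to 1.34 CPM alone and 2.01 to 2.92 CPM in co-culture. None of the 6 reached a mean of 1 CPM in either group, and 3 had no count in LSECs alone. Of the 3 that were tested, 0 were called with or without the block. Endothelial markers summed to 6570 to 10375 CPM alone and 7400 to 10418 CPM in co-culture, and 7 stellate cell markers to 77.7 to 113 and 73.7 to 86.1 CPM, with overlapping ranges for both lists. Without the block none of either list was called. With it 6 of 8 endothelial markers were higher and 1 lower, against the same 16.7% and 16.6% of all genes. Of 6 stellate cell markers tested 1 was higher and 3 lower with the block. The part of these cells in the synthetase values was not tested.

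**Figure D3:**
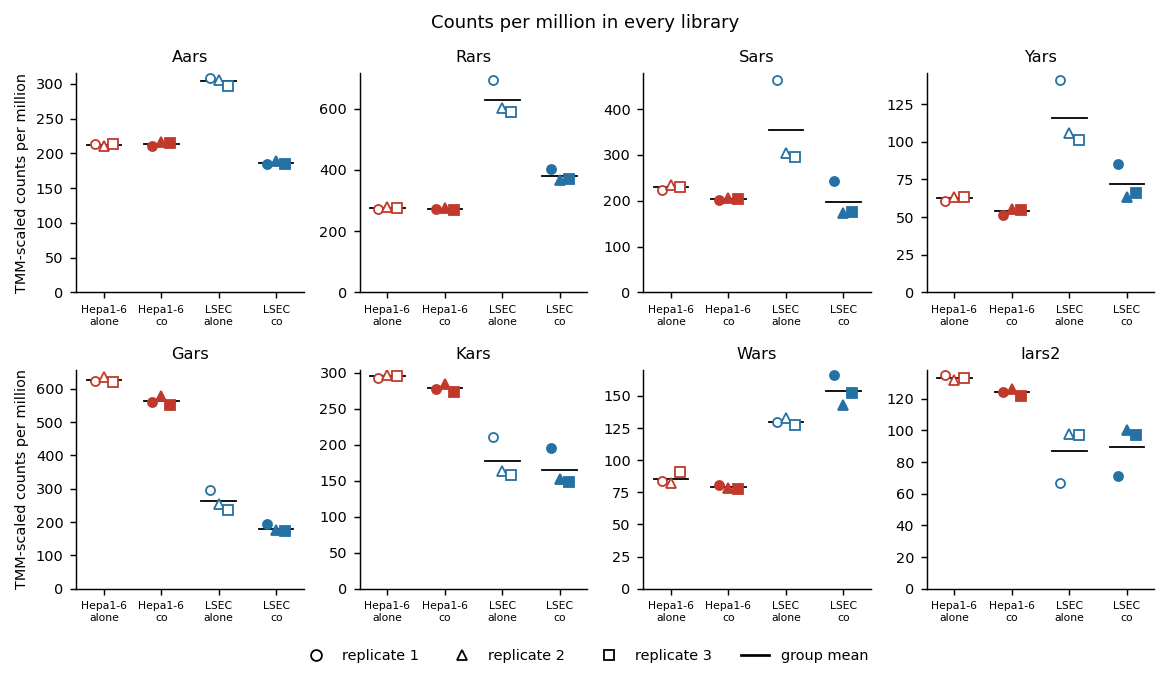
TMM-scaled CPM in every library for 8 synthetase genes (vertical axes from 0), with a bar at each group mean, open symbols for mono-culture, filled symbols for co-culture and a symbol shape per replicate number. Aars and Rars are at like levels in both Hepa1-6 groups and lower in co-cultured LSECs. The Wars values of co-cultured LSECs lie above those of LSECs alone, a difference called only with replicate number as a block. Replicate 1 stands apart in LSECs for most genes shown.

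The change in LSECs was set against that in Hepa1-6 cells by the interaction of cell and co-culture over all 12 libraries. Aars and Rars, whose Hepa1-6 estimates were near 0, fell more in LSECs, by -0.72 ± 0.10 (adjusted p = 0.00248) and -0.70 ± 0.12 (adjusted p = 0.0139) on the log2 scale. No other gene passed, so 0 of 42 had a higher and 2 a lower change in LSECs, against 1.4% of 17346 genes higher and 0.951% lower. At an unadjusted p under 0.05 the counts were 3 and 11, and DESeq2 called 1 higher and 9 lower. For these counts too no share over all genes is given. With the block 13 were lower and 1 higher, against 7.98% and 9.36% of all genes. The 13 were 12 cytosolic enzymes and Gars, and none was mitochondrial.

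The call on Rars was lost when any of 5 Hepa1-6 libraries was left out, at adjusted p of 0.0501 to 0.0538. The gene called higher with the block was Wars, with a difference of 0.35 ± 0.12 (adjusted p = 0.194, and 0.0112 with the block). Part of this difference came from Hepa1-6 cells, where the Wars estimate was -0.12 ± 0.04 (adjusted p = 0.0557, and 0.0424 with the block). Pars2, the mitochondrial prolyl enzyme, had a larger estimate of 0.42 ± 0.18 that passed neither test (adjusted p = 0.372, and 0.0718 with the block). Sars (-0.67 ± 0.25, adjusted p = 0.292, and 3.46e-05 with the block), Yars (-0.48 ± 0.20, adjusted p = 0.394 and 0.00054), Cars (-0.48 ± 0.15, adjusted p = 0.16 and 0.00221) and Gars (-0.39 ± 0.14, adjusted p = 0.243 and 0.000769) passed with the block and not without it. Nars (-0.39 ± 0.11) had adjusted p of 0.116 and 0.000487, and Iars (-0.36 ± 0.26) of 0.752 and 0.00834. The median difference was -0.28 over cytosolic and 0.02 over mitochondrial enzymes. Of the 15 genes lower in Hepa1-6 cells without the block, 12 (80%) were among the 20 called lower in LSECs with it (60% of those). Aars and Rars were among the other 8 of the 20. Without the block in LSECs the overlap was 0, as Aars and Rars were the only 2 calls. The overlap over all genes is not given here, so nothing is read from these counts.

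Setting each cytosolic enzyme beside the mitochondrial enzyme for the same amino acid gave 14 pairs. In LSECs the cytosolic fold change was the lower of the pair for 12, the exceptions being methionine (-0.44 for Mars and -0.46 for Mars2) and tryptophan (0.21 for Wars and -0.14 for Wars2). The widest gaps were for serine (-0.89 for Sars and -0.01 for Sars2), alanine (-0.75 for Aars and -0.09 for Aars2), arginine (-0.76 for Rars and -0.13 for Rars2) and cysteine (-0.74 for Cars and -0.11 for Cars2). Alanine and arginine were the amino acids whose cytosolic enzyme alone was called without the block.

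In Hepa1-6 cells the cytosolic enzyme was the lower for 9 of 14 pairs. It alone was called for cysteine (-0.22 for Cars and -0.11 for Cars2), leucine (-0.16 for Lars and -0.06 for Lars2), asparagine (-0.16 for Nars and -0.11 for Nars2), serine (-0.17 for Sars and 0.01 for Sars2) and tyrosine (-0.22 for Yars and -0.11 for Yars2). Both enzymes were called for isoleucine, methionine and threonine. The difference between partners was not itself tested.

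**Figure D4:**
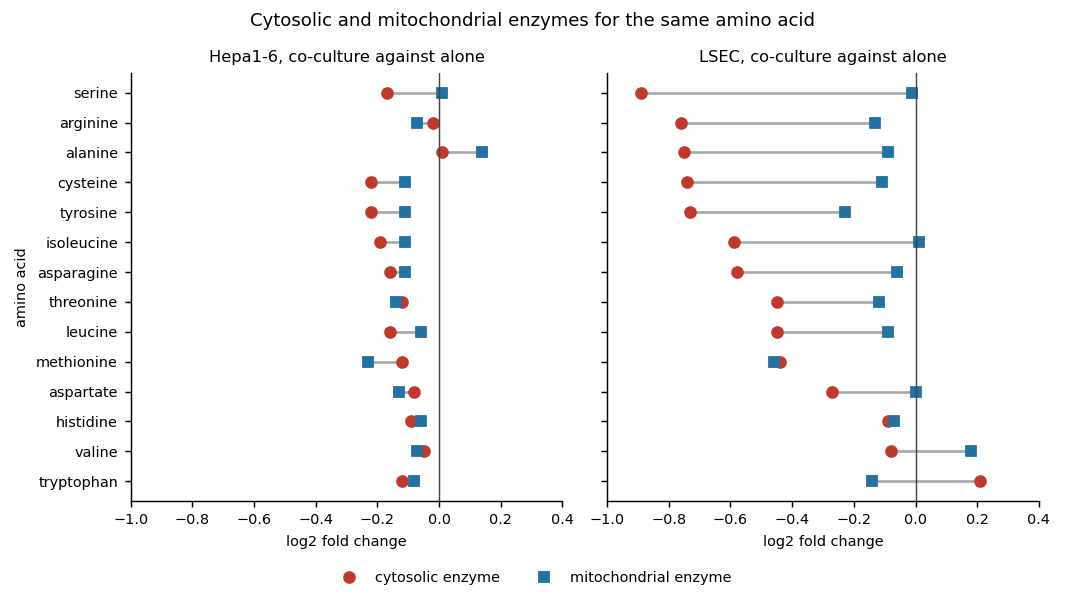
Log2 fold change in co-culture of the cytosolic (circles) and mitochondrial (squares) enzyme for 14 amino acids, joined by a line, in Hepa1-6 cells (left) and LSECs (right). In LSECs the circle lies left of the square for 12 amino acids, with tryptophan and methionine the exceptions, and in Hepa1-6 cells all values lie between -0.23 and 0.14.

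The scaffold genes of the multi-synthetase complex passed neither co-culture test without the block. Aimp1 was at 98.2 to 98.6 CPM in Hepa1-6 cells alone and 91.7 to 98.9 CPM in co-culture (-0.03 ± 0.04, adjusted p = 0.6), and Aimp2 at 94.5 to 98.7 and 88.9 to 94.9 CPM (-0.08 ± 0.04, adjusted p = 0.145). In LSECs Aimp1 was at 110, 59.2 and 60.5 CPM alone and 80.6, 50.3 and 54.2 CPM in co-culture (-0.35 ± 0.33, adjusted p = 0.815, and 0.00771 with the block). Replicate 1 of both LSEC groups was far above the others for Aimp1. The same held for Aimp2, at 62.9, 35.6 and 36.6 CPM alone and 45.6, 30.4 and 31.1 CPM in co-culture (-0.38 ± 0.30, adjusted p = 0.76, and 0.00675 with the block).

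Kars, whose product is a member of the complex, was at 211, 164 and 158 CPM in LSECs alone and 195, 153 and 148 CPM in co-culture (-0.14 ± 0.19, adjusted p = 0.913, and 0.0452 with the block). Each library was a little below its same-numbered partner. Without replicate 1 of LSECs alone, the estimates for Kars and Aimp1 turned to 0.03 and that for Aimp2 to -0.03, so no direction is given for them from the unblocked test. Eef1e1, which encodes a further scaffold of the complex and is not matched by the words used, changed by -0.09 ± 0.04 in Hepa1-6 cells (adjusted p = 0.124) and -0.23 ± 0.15 in LSECs (adjusted p = 0.668).

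The 5 genes with a C/EBP-ATF element in the window, whose stretches are printed above, had a median log2 fold change of -0.59 in LSECs, within a range of -0.75 to -0.45. The 9 cytosolic or dual-compartment genes with a window and without the element had a median of -0.27, within -0.92 to 0.06, and the 7 for which no window was used had -0.45. In LSECs 1 of the 5, 0 of the 9 and 1 of the 7 were called lower without the block, against 0.911% of all genes. In Hepa1-6 cells the medians were -0.15, -0.08 and -0.12. There 4 of the 5, 4 of the 9 and 3 of the 7 were called lower, against 7.03% of all genes. The difference between these sets was not tested. Sars, with one of the most negative LSEC estimates, was among the genes without the letters in its window, and Aars, with 2 elements, had an estimate of 0.01 in Hepa1-6 cells.

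Genes of the integrated stress response were lower in the same comparisons. Of 26 listed, 2 were higher and 14 lower in Hepa1-6 cells, against 8.5% and 7.03% of all genes, with a median log2 fold change of -0.20. In LSECs 1 was higher and 9 lower, against 2.18% and 0.911%, with a median of -0.89. With the block 3 were higher and 20 lower in LSECs, against 16.7% and 16.6%. Mthfd2, a mitochondrial folate enzyme, had means of 76.5 ± 6.94 CPM in LSECs alone and 25.1 ± 3.85 CPM in co-culture (-1.65 ± 0.17, adjusted p = 0.00665). Atf5, a transcription factor related to ATF4, fell by 2.04 ± 0.23 in LSECs (adjusted p = 0.00876), and Slc7a5, the light chain of a neutral amino acid transporter, fell by 1.21 ± 0.14 (adjusted p = 0.00967).

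In Hepa1-6 cells the smallest p among them were those of Shmt2, a mitochondrial serine hydroxymethyltransferase (-0.27 ± 0.02, adjusted p = 6.35e-08), Slc7a5 (-0.33 ± 0.03, adjusted p = 2.25e-07) and Aldh18a1, an enzyme of proline synthesis (-0.33 ± 0.04, adjusted p = 6.16e-07). Slc7a11, the cystine transporter, was the listed gene higher in LSECs without the block, at 8.37 ± 2.89 CPM alone and 29.9 ± 6.64 CPM in co-culture (1.81 ± 0.31, adjusted p = 0.0388), and it was higher in Hepa1-6 cells too (0.18 ± 0.04, adjusted p = 0.0013). Of the eIF2 kinases and nutrient sensors, 1 of 11 tested was higher in Hepa1-6 cells, a share near the 8.5% of all genes. It was Eif2ak3, the kinase PERK (0.25 ± 0.05, adjusted p = 0.0018). In LSECs 1 of 12 was lower, against 0.911% of all genes. It was Rragd, a GTPase of the amino acid sensing pathway (-1.63 ± 0.22, adjusted p = 0.0153). With the block 1 of the 12 was higher and 5 lower, against 16.7% and 16.6% of all genes.

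Other parts of the translation machinery held lower genes in Hepa1-6 cells in shares that varied by list, against 7.03% of all genes. Of 9 cytosolic elongation and release factors 5 were lower, led by Eif5a (-0.14 ± 0.02, adjusted p = 0.000106), and of 28 genes of tRNA processing and modification 6 were lower, led by Pop1, a subunit of RNase P (-0.18 ± 0.03, adjusted p = 5.1e-05). Of 12 tRNA charging partners 1 was lower, Trnt1, which adds the CCA end (-0.10 ± 0.03, adjusted p = 0.0284), a share near that of all genes, and of 10 mitochondrial translation factors 2 were lower, Tsfm (-0.18 ± 0.05, adjusted p = 0.0176) and Tufm (-0.08 ± 0.03, adjusted p = 0.0464). None of these lists had a gene that rose in Hepa1-6 cells.

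In LSECs the same lists held 1 call, Eef2k, the kinase of elongation factor eEF2 (-0.70 ± 0.13, adjusted p = 0.0499). That was 1 of 9 elongation and release factors lower and 0 of the 28, 12 and 10 genes of the other lists. Over all genes 0.911% were lower. With the block 6 of 9 elongation and release factors, 13 of 28 processing genes, 5 of 12 charging partners and 1 of 10 mitochondrial factors were lower, against 16.6% of all genes, and 1 elongation or release factor was higher. The share of the mitochondrial factors was below that background. Their medians without the block were -0.23, -0.22, -0.21 and -0.12, against -0.45 for the cytosolic synthetases.

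Of 18 genes of MYC and ribosome synthesis, 11 were lower and 1 higher in Hepa1-6 cells, against 7.03% and 8.5% of all genes, with a median of -0.15. Myc itself fell from a mean of 250 to 188 CPM (-0.41 ± 0.03, adjusted p = 5.76e-10) and Nop56, a nucleolar protein of ribosome assembly, by 0.20 ± 0.02 (adjusted p = 7.63e-06), while Odc1, the polyamine enzyme ornithine decarboxylase, rose by 0.73 ± 0.03 (adjusted p = 6.32e-14). In LSECs 1 was lower, Rrp12 (-0.72 ± 0.12, adjusted p = 0.03), against 0.911% of all genes. With the block 11 were lower and 1 higher, against 16.6% and 16.7%.

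Some interferon-inducible genes rose in co-cultured LSECs. Of 16 tested 5 were higher and none lower, against 2.18% and 0.911% of all genes, with a median of 0.60. With the block 14 were higher, against 16.7% of all genes. Gbp2 rose from a mean of 28.2 to 87.5 CPM (1.60 ± 0.13, adjusted p = 0.00237), Gbp3 from 31 to 83.5 CPM (1.39 ± 0.12, adjusted p = 0.00323), both guanylate-binding proteins, and the chemokine gene Cxcl9 from 2.78 to 11 CPM (1.95 ± 0.20, adjusted p = 0.00583). In Hepa1-6 cells Oasl1, an oligoadenylate synthetase-like gene, was higher (0.55 ± 0.11, adjusted p = 0.0013), and the median of the 12 tested was 0.09.

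Some positions bear on how the counts can be read. Hars and Hars2, the histidyl enzymes, lie side by side and their annotated spans overlap by 4 bases, so reads over that overlap could be assigned to either without strand. Iars2 and Eprs are neighbours on chromosome 1 with 31997 bases between them and share no sequence by position. Lars2 spanned 171 to 208 CPM in Hepa1-6 cells alone and 84.7 to 148 CPM in LSECs alone.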

How the data were processed

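Polyadenylated RNA was sequenced in paired ends from 12 libraries with a stranded kit, per the labels' protocols. Reads were aligned with HISAT2 and quantified with StringTie on mm10, per the submitters' processing notes; versions and strand setting are not given in the sources used here. The authors deposited, per the file headers, an estimated count (expected count, here whole numbers) and TPM per gene and library. Counts served the tests and TPM the levels between genes; 36 other per-library columns were not used. The deposited transcript table gave loci and lengths in bases (other values), and its counts were used for no result. Co-culture titles name both cells, and the first was taken as the one sequenced, checked by markers.

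Counts were taken as integers and tested with edgeR 4.0.16 (filterByExpr, TMM, robust quasi-likelihood F-test) in R 4.3.3. Each fit used the 6 libraries compared, or all 12 for the difference between cells. Benjamini-Hochberg adjustment was over all genes tested, with calls at an adjusted p under 0.05. Standard errors came from the F statistic. CPM used 1 TMM scale over 12 libraries. Tests were tried, without the block, on simulated counts in which randomly chosen genes were changed. In Hepa1-6 cells 68.7% of 1.5-fold and 77.6% of 2-fold changes were called. In LSECs 0% and 1.49% were called, and for the difference between cells 0% and 23.9%. Between mono-cultures the shares were 0% and 22.4%. A missing call in LSECs or in these differences thus does not show that a gene was unchanged. Alternatives were DESeq2 1.42.0, its size factors, no filter, limma 3.58.1 on log2(TPM + 1), the replicate block and libraries left out.

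Same-numbered LSEC libraries correlated at 0.892, 0.684 and 0.717 in their deviations, though numbers 2 and 3 also correlated with each other (0.744 and 0.688); Hepa1-6 libraries did not (0.0798, 0.0131 and -0.00885). Blocked values therefore stand beside LSEC results. Members, classes and gene lists were chosen with earlier results of these data known. Named genes were the 6 called members with the smallest p per co-culture comparison, the 4 largest differences each way between mono-cultures, Wars, Kars, Gars, Eprs, Aimp1 and Aimp2, amino acid pairs called in 1 compartment, and 3 called genes per other list. Others named were chosen after their values were seen, and 1 listed gene is not reported here.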

Additional observations from a re-analysis of the deposited data

Results flagged for a closer look

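The change of Aars in co-culture differed between the cell types, with a log2 difference of -0.72 ± 0.10 (LSEC minus Hepa1-6, edgeR adjusted p = 0.00248). Rars differed likewise, by -0.70 ± 0.12 (adjusted p = 0.0139). Both genes were lower in co-cultured LSECs and near 0 in Hepa1-6 cells (0.01 and -0.02). The summed level of macrophage markers also moved with LSEC co-culture, and its part in these values was not tested.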

How the results depend on the processing

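In LSECs 2 genes were lower, and the count was 11 with DESeq2, 0 without a filter, 4 with limma on log2(TPM + 1), 20 with the replicate block, 19 without both LSEC libraries numbered 1 and 0 to 1 with a library left out. The count of higher genes (0) was 1 with the block and 1 without both libraries numbered 1. Shares over all genes are not given here for DESeq2, limma, no filter or a single library left out. For the difference between cells, the lower count (2) was 9 with DESeq2, 6 with limma, 13 with the block, 14 without the libraries numbered 1 and 1 to 3 with a library left out, and the higher count (0) was 1 with DESeq2, the block and without the libraries numbered 1. In Hepa1-6 cells 15 lower genes became 7 with limma, and the cytosolic median of -0.12 became -0.10. With a library left out, the cytosolic and mitochondrial medians ran from -0.13 to -0.10 and from -0.10 to -0.08 in Hepa1-6 cells, from -0.46 to -0.44 and from -0.17 to -0.06 in LSECs, from -0.48 to -0.38 and from -0.46 to -0.37 between mono-cultures, and the cytosolic difference between cells from -0.31 to -0.24. The mitochondrial median between mono-cultures was -0.33 with limma, and sorting genes by symbol gave a cytosolic LSEC median of -0.41. Estimates that changed sign did so, without a call, with a library left out: Kars and Aimp1 in LSECs ran from -0.28 to 0.03 and from -0.60 to 0.03 (Aimp2, with no change of sign, from -0.60 to -0.03), and the differences between cells from -0.15 to 0.12 for Kars, -0.52 to 0.08 for Aimp1 and -0.47 to 0.06 for Aimp2. Of the other single-gene values over all alternatives, 513 kept direction and side of the threshold, 42 gained a call and 29 lost one. The replicate block lost no call among the named genes. In Hepa1-6 cells, where numbers do not pair, it gave 18 lower genes of the 42, against 1195 of 14796 genes tested. The cause of these shifts was not tested. A limit of 3 counts is at most 0.0916 CPM here, counting error only, and the lowest group mean of these genes is 2.21 CPM.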
